A study of Homo sapiens with 6 samples.

Results

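The vesicle exocytosis genes examined here are the synaptotagmins, the CADPS priming factors, the SNARE proteins of the syntaxin, SNAP and VAMP families, and the STXBP, UNC13, RIMS, complexin, synapsin and SV2 genes. They were chosen by gene symbol, with earlier results of these data known. In all, 70 protein-coding genes matched, of 28395 gene identifiers in the count table, and all 70 were listed in it. The data are 6 bulk RNA-sequencing libraries of U251 (U251MG), an established human glioblastoma cell line of astrocytic type, 3 from WT cells and 3 from NUAK2-CR cells. In NUAK2-CR cells the kinase gene NUAK2 had been targeted with CRISPR-Cas9: per the study's methods, a guide was carried by a pair of lentiviral vectors with green and red reporters, and cells positive for both reporters were sorted singly and grown as clones. The labels give no drug treatment or time point for either group, do not name the clone of any NUAK2-CR library, and do not say whether WT cells carried a control vector, so clonal differences and the loss of NUAK2 cannot be told apart in this comparison. The labels number the libraries 1 to 3 in each group without naming separate cultures, and p-values measure only the spread between these libraries. NUAK2 itself was lower in NUAK2-CR by -0.93 ± 0.11 on the log2 scale (SE, n = 3 and 3), with no overlap between the groups. It lies on chromosome 1, where the median over tested genes was -0.43, and the part of position in its value was not tested.

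Exocytosis is the fusion of a vesicle with the plasma membrane. A VAMP protein on the vesicle pairs with a syntaxin and a SNAP protein on the target membrane, and the coiling of these SNAREs pulls the membranes together. Munc18 proteins (among the STXBP genes) hold and guide syntaxins, RIM, Munc13 and CAPS proteins (RIMS, UNC13 and CADPS genes) dock and prime vesicles, and synaptotagmins and complexins couple fusion to calcium. Neurons and endocrine cells run this machinery with SNAP25, STX1A, VAMP2 and SYT1, whereas most other cells use SNAP23, STX4, VAMP3 and STXBP3. Astrocytes and glioma cells release peptides, enzymes and transmitters by such routes as well.

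Regulatory sequence of 3 members is shown because their values, or their motifs, stand out among the members. CADPS and STXBP6 had the largest change in each direction, and SYN1 was the only member whose promoter held all 3 motifs searched. The 250 bases upstream of each RefSeq gene start (GRCh38.p14, on the strand of the gene, 5′ to 3′) were searched on both strands for CAGCACC and GGACAG, the left and right parts of RE1, the element bound by the neuronal gene repressor REST, and for the cyclic AMP response element TGACGTCA. Matches are in capitals.
CADPS (chr3:62875417-62875666, minus strand): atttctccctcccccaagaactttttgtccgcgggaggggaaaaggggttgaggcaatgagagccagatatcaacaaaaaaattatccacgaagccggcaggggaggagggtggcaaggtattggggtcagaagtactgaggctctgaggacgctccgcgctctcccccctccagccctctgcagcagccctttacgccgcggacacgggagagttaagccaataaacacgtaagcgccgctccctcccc
STXBP6 (chr14:25050148-25050397, minus strand): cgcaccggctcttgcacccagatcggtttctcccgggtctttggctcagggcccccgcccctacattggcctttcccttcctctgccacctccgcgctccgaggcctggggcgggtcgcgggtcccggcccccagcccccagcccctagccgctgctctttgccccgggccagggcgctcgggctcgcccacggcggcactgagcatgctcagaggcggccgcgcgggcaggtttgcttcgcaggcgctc
SYN1 (chrX:47619858-47620107, minus strand): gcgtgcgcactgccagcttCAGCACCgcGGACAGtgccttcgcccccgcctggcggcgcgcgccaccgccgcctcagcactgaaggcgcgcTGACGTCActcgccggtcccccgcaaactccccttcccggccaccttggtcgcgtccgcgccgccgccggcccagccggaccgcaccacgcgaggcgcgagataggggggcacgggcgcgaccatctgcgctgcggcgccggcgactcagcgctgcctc

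None of the 3 motifs lay in the CADPS window, which was 58.0% G and C with 14 CpG dinucleotides, or in the STXBP6 window, which was 73.6% G and C with 25 CpG dinucleotides. Windows were given for 54 of the 70 members and not for 16, SNAP25, SYT12, SYT13 and CPLX1 among them. CAGCACC was present in 9 of the 54 member windows (16.7%) and in 6.07% of all 27305 windows. GGACAG, a shorter word, was present in 14 member windows (25.9%) against 17.1% of all windows. TGACGTCA was present in 3 member windows, those of STX12, STXBP3 and SYN1 (5.56%), against 1.77% of all windows. Of the 9 members with CAGCACC, RIMS1 and SNAP23 were lower in NUAK2-CR, SYN1 and SYT15 did not pass the test, and SV2B, SV2C, SYT3, SYT4 and UNC13C had too few counts to be tested. The member windows were also richer in CpG, with a median of 21.5 CpG dinucleotides against 11 over all windows, and a median G and C content of 68.0% against 58.0%. The 27305 windows were not limited to protein-coding genes, whereas all members are protein-coding, so these contrasts are between unlike sets. The part of this difference in the contrasts was not tested. A match is a string of letters and not evidence of binding.

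Of the 70 members, 52 had enough counts to be tested in the fit over all 14873 tested genes. By edgeR's quasi-likelihood F test, 31 of the 52 (59.6%) passed an adjusted p-value of 0.05, against 54.5% of all tested genes, so members were called about as often as genes in general. The 11 members higher in NUAK2-CR are set against 26.3% of all tested genes called higher, and the 20 lower members against 28.2% called lower. DEGs, which had an absolute log2 fold change over 2 in addition, numbered 5 of the 52 members, against 4.72% of all tested genes. CADPS, SNAP25 and SYT12 were the DEGs that rose, and STXBP6 and SYT13 those that fell. The values of WT and NUAK2-CR libraries did not overlap for 37 of the 52 members (71.2%), against 61.4% of all tested genes. Their median log2 fold change was -0.24, against -0.01 over all tested genes. In bulk RNA, fewer cells that express a gene and less RNA of it per cell cannot be told apart, and this applies to each value given here.

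**Figure D1:**
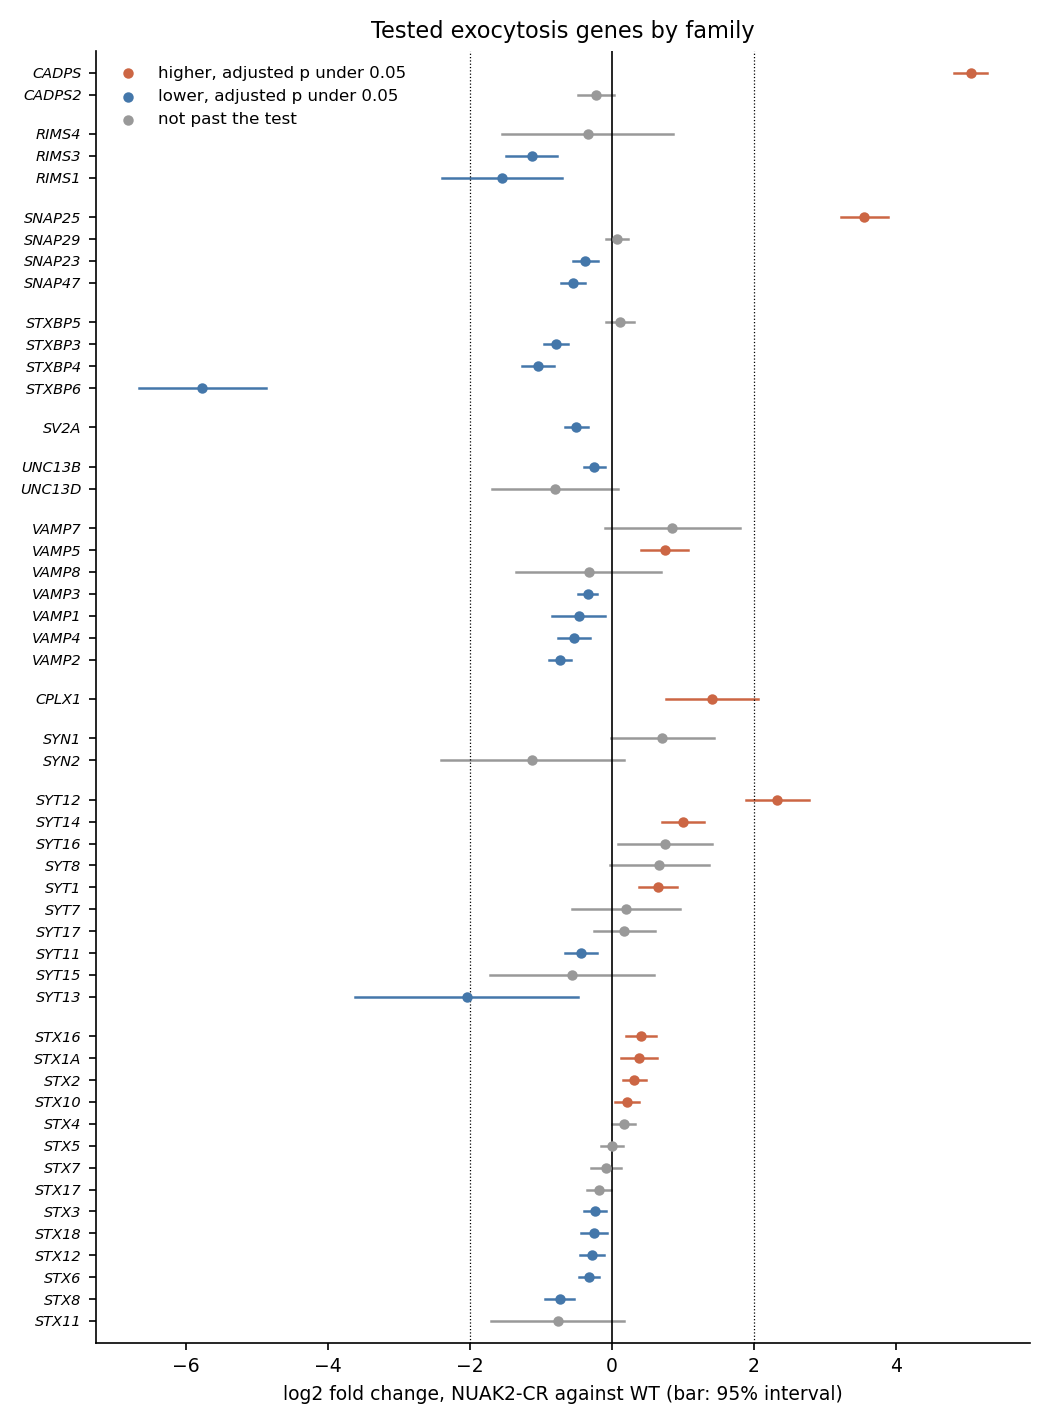
Log2 fold change, NUAK2-CR against WT, of 50 tested members grouped by family, with bars for the 95% interval of edgeR's fit and dotted lines at the DEG threshold of 2 in each direction. Most members sit within 1 of 0 on the log2 scale, while CADPS (5.05), SNAP25 (3.56) and SYT12 (2.33) lie to the right and STXBP6 (-5.77) and SYT13 (-2.05) to the left.

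Library totals on genes ranged from 35310946 to 55574081 counts in WT and from 29648445 to 33776712 in NUAK2-CR, so every WT library was deeper than every NUAK2-CR library. Identity was checked with marker lists of cell types. Of 10 glial and glioma markers, 9 had over 3 counts in every library, AQP4 being at or under 3 counts in all, and 6 were lower in NUAK2-CR, their summed level being 333371 to 369329 normalized counts in the WT libraries and 147197 to 154121 in NUAK2-CR. Of 11 neuron markers, 7 were over 3 counts in every library, ELAVL3 and STMN2 were higher and 3 were lower, ELAVL4 and INA were at 0, and the summed level was 40156 to 42735 in WT and 16256 to 16956 in NUAK2-CR. The neuroendocrine marker CHGA, the oligodendrocyte markers MAG, MOG and OLIG2, and the microglial markers AIF1, CX3CR1 and TYROBP had 0 counts in all libraries. SCG2 (1914 and 1020 normalized counts on average in WT and NUAK2-CR), MBP (126 and 31.6) and CSF1R (222 and 40.2) of these lists were lower, and CHGB (192 and 179) did not pass the test. The summed neuroendocrine level was 1865 to 2367 in WT and 1067 to 1313 in NUAK2-CR, the oligodendrocyte level 117.2 to 161 and 38.4 to 51.9, and the microglial level 202 to 237 and 38.1 to 45.01. Of 3 endothelial markers 2 were higher (summed level 17.2 to 31.2 and 84.4 to 90.2), and of 5 fibroblast markers 3 were higher and 2 lower (60886 to 64889 and 76692 to 81603). ELAVL3 and STMN2 moved in the same direction as CADPS and SNAP25, and NEFL (22749 to 2026), NEFM (53.2 to 22.6) and TUBB3 (16225 to 11519) in the other. DCX, not tested, had raw counts of 12, 16 and 14 in WT and 0, 2 and 1 in NUAK2-CR. The sum of the neuron list followed NEFL and TUBB3. STMN2, the endothelial marker PECAM1 and LUM, among the 3 higher fibroblast markers, passed the low-count filter through NUAK2-CR alone. Raw counts in WT were 2, 5 and 0 for STMN2, 2, 0 and 0 for PECAM1, and 2, 8 and 9 for LUM. The part of these markers in the results was not tested.

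The priming factors held the member with the largest rise. CADPS, also called CAPS1, primes dense-core vesicles for calcium-triggered release, and is best known from neurons and endocrine cells (gene 8618, chromosome 3, 62398348 to 62875416, minus strand, GRCh38.p14). Its normalized counts (counts at the average effective library size of the 6 libraries) were 73.7, 57.9 and 67.7 in the WT libraries and 2220, 2291 and 2180 in the NUAK2-CR libraries. Every NUAK2-CR library was far above every WT library, and the spread within each group was small. The mean rose from 66.4 ± 8.0 to 2230 ± 56.3 (SD, n = 3 each), a log2 fold change of 5.05 ± 0.11 (SE), with adjusted p = 1.1e-11 by edgeR. CADPS2, its paralog with the same function in priming, did not follow: its values were 504, 497 and 497 in WT and 401, 392 and 487 in NUAK2-CR. That log2 fold change of -0.22 had a 95% interval of -0.48 to 0.03 and did not pass the test in the full set of libraries, although it did without NUAK2-CR replicate 3 (-0.33, adjusted p = 0.043 by edgeR).

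UNC13B, the Munc13-2 gene and the UNC13 member with the most counts, had values of 2644, 2458 and 2629 in WT and of 2133, 2250 and 2123 in NUAK2-CR. The groups did not overlap, and it was lower by a log2 fold change of -0.25 ± 0.07 (SE). UNC13D, the Munc13-4 gene required for granule release by blood cells, had 70.4, 47.3 and 37.6 in WT and 46.98, 14.5 and 28.5 in NUAK2-CR. These groups overlapped, and the log2 fold change of -0.81 had an interval of -1.70 to 0.08. Without NUAK2-CR replicate 1 it was -1.25 and passed the test (adjusted p = 0.034 by edgeR). UNC13A, the main neuronal Munc13 gene, reached at most 4 counts, and UNC13C had 0 counts in every library.

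RIM proteins, the scaffolds that tether vesicles at release sites, were at low levels, and those that passed the test were lower in NUAK2-CR. RIMS1 had 42.5, 29.9 and 32.2 normalized counts in the WT libraries and 12.7, 14.5 and 8.78 in NUAK2-CR, without overlap, a log2 fold change of -1.55 ± 0.39 (SE). RIMS3, a short RIM isoform gene with the most counts of its family, had 331, 330 and 272 in WT and 127, 130 and 169 in NUAK2-CR, which is a log2 fold change of -1.13 ± 0.17 (SE). RIMS3 overlaps NFYC on the opposite strand, at 2392 normalized counts in the WT libraries and 1382 in NUAK2-CR. Reads were counted with default settings, which ignore strand, so reads of such pairs may be mixed. RIMS4 had a log2 fold change of -0.34 with overlapping groups, and RIMS2 reached at most 4 counts.

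Among the SNAP genes, which encode the SNARE that adds a pair of helices to the fusion bundle, SNAP25 was higher while SNAP23 and SNAP47 were lower. SNAP25, the form of neurons and endocrine cells (gene 6616, chromosome 20, 10218830 to 10307418, plus strand), had 57.8, 59.8 and 76.3 normalized counts in the WT libraries and 742, 686 and 834 in NUAK2-CR. All 3 NUAK2-CR libraries were far above all 3 WT libraries. The log2 fold change was 3.56 ± 0.15 (SE), with adjusted p = 2.5e-09 by edgeR. An antisense gene, SNAP25-AS1, overlaps it, with raw counts of 2, 0 and 2 in WT and 18, 38 and 31 in NUAK2-CR. SNAP25-AS1 passed the low-count filter through NUAK2-CR alone, and its counts were small beside those of SNAP25 itself. SNAP23, the ubiquitous form, had 2863, 3013 and 3338 in WT and 2545, 2317 and 2233 in NUAK2-CR. It was lower by -0.38 ± 0.08 on the log2 scale (SE), again with the groups apart. On the opposite strand SNAP23 overlaps ZNF106 (4586 and 3944 normalized counts in WT and NUAK2-CR) and LRRC57 (705 and 859), so reads may be mixed. SNAP47 was lower as well (-0.55 ± 0.08, SE), and SNAP29, which serves autophagosome and endosome fusion, was at 1630 ± 69.4 and 1717 ± 60.1 (SD, n = 3 each) with an interval of the log2 fold change from -0.08 to 0.23.

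**Figure D2:**
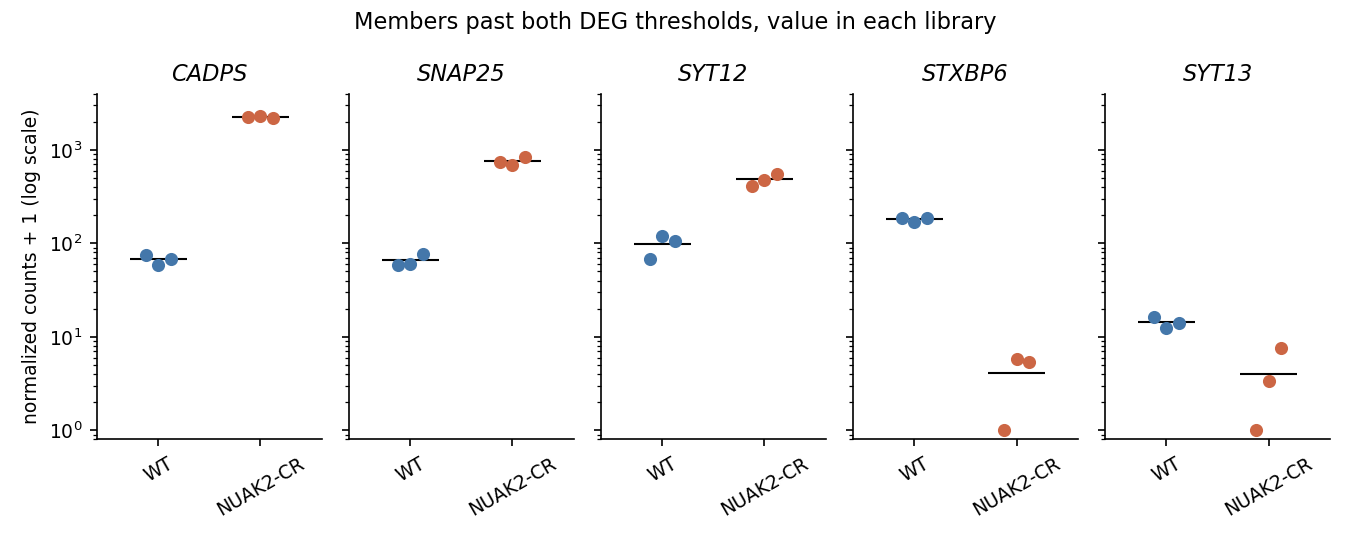
Normalized counts plus 1, on a log axis, of the 5 members past both DEG thresholds in each WT and NUAK2-CR library, with lines at the group means. The groups are apart in all 5 genes, CADPS, SNAP25 and SYT12 being higher and STXBP6 and SYT13 lower in NUAK2-CR, and the NUAK2-CR values of STXBP6 and SYT13 lie near or at 0.

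Syntaxins, the target-membrane SNAREs, were the family with the most tested members, 15 of 16. Of the 15, 4 were higher and 5 lower (60.0% called, against 54.5% of all tested genes). Their log2 fold changes ran from -0.76 to 0.41, short of the DEG threshold. STX1A, the syntaxin of regulated release, had 765, 618 and 613 normalized counts in the WT libraries and 988, 851 and 777 in NUAK2-CR. These groups were narrowly apart, with a log2 fold change of 0.39 ± 0.12 (SE) and adjusted p = 0.014 by edgeR. The call was lost without WT replicate 2 (0.33), without WT replicate 3 (0.33) or without NUAK2-CR replicate 1 (0.31), adjusted p by edgeR being 0.050 to 0.060. STX4, the plasma membrane syntaxin of most cells, was at 1042 ± 19.5 in WT and 1168 ± 21.5 in NUAK2-CR (SD, n = 3 each) and did not pass the test (0.16, interval 0.00 to 0.33).

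Other syntaxins serve the plasma membrane, the endosomes and the Golgi. STX2 was higher by 0.31 ± 0.07 and STX3 lower by -0.23 ± 0.07 on the log2 scale (SE). STX16, a syntaxin of the trans-Golgi network with the most normalized counts of the family over the 6 libraries (in WT, STX6 had more), had 2885, 2423 and 2210 in WT and 3651, 3097 and 3231 in NUAK2-CR, which is a log2 fold change of 0.41 ± 0.10 (SE). Its partners on that route diverged, STX10 being higher (0.21) and STX6 lower (-0.33). The largest called change of the family was in STX8, a late endosome syntaxin, with 707, 777 and 730 in WT and 438, 457 and 435 in NUAK2-CR, which gives a log2 fold change of -0.73 ± 0.09 (SE). STX12 (-0.28) and STX18 (-0.26) were lower. STX5 (0.01), STX7 (-0.08), STX17 (-0.18) and STX11 (-0.76) did not pass, the groups of STX11 overlapping at 15.4 to 60.2 normalized counts. Leaving out 1 library ended the calls of STX3 (without NUAK2-CR replicate 2), STX12 (without NUAK2-CR replicate 1), STX10 (without WT replicate 2 or NUAK2-CR replicates 1 or 2) and STX18 (without WT replicate 3 or NUAK2-CR replicates 1 or 2), with adjusted p by edgeR of up to 0.076, 0.071, 0.13 and 0.095 in that order. STX19 reached at most 4 counts.

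VAMP genes, which encode the vesicle SNAREs, were all tested, and 4 of the 7 were lower, against 28.2% of all tested genes. Of these, VAMP3 and VAMP4 lie on chromosome 1 and VAMP2 on chromosome 17, and 57.2% of the tested genes of these chromosomes were lower. VAMP3, or cellubrevin, the vesicle SNARE of recycling and constitutive routes, had 4860, 4854 and 4822 normalized counts in the WT libraries and 3799, 3806 and 3850 in NUAK2-CR. The libraries of each group were nearly equal, and the log2 fold change was -0.34 ± 0.06 (SE). VAMP2, the synaptobrevin of regulated release, had 2878, 2850 and 2576 in WT and 1700, 1605 and 1692 in NUAK2-CR, which is a log2 fold change of -0.73 ± 0.07 (SE), while SNAP25 and STX1A were higher. VAMP4 was lower by -0.54 and VAMP1 by -0.47 on the log2 scale, and the VAMP1 call was lost without WT replicate 1, WT replicate 3 or NUAK2-CR replicate 3 (adjusted p up to 0.13 by edgeR). VAMP1 overlaps TAPBPL on the opposite strand. VAMP5, a VAMP best known from muscle, was the member of the family that rose, with 181, 175 and 212 in WT and 282, 310 and 355 in NUAK2-CR, which is a log2 fold change of 0.74 ± 0.15 (SE).

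VAMP7 and VAMP8, which serve lysosomes and endosomes, did not pass the test. VAMP7 had 68.4, 80.1 and 80.6 in WT but 206, 36.2 and 170 in NUAK2-CR, where replicate 2 was below and the others above all WT libraries. Without NUAK2-CR replicate 2 it passed (adjusted p = 0.00057 by edgeR, log2 fold change 1.30). VAMP7 lies in a region shared by the sex chromosomes, where reads can match equally well to both copies, and its counts are uncertain for that reason. VAMP8 was low, at 7.62 to 25.8 normalized counts over the 6 libraries.

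The STXBP genes encode Munc18 proteins and other partners of syntaxins, and held the largest fall of all members. STXBP6, or amisyn, is a soluble protein with a VAMP-like SNARE motif that binds syntaxin and SNAP25 and holds back fusion (gene 29091, chromosome 14, 24809454 to 25050147, minus strand). Its raw counts were 277, 174 and 173 in WT and 0, 4 and 4 in NUAK2-CR, or 184, 168 and 186 normalized counts against 0, 4.82 and 4.39. The WT libraries were close to each other and every NUAK2-CR library was close to the floor of 3 counts. The fitted log2 fold change was -5.77 ± 0.41 (SE), with adjusted p = 2.0e-07 by edgeR. It depends on the library at 0, being -5.23 without NUAK2-CR replicate 1, and on the prior count, being -5.14 with a prior count of 2. STXBP6 passed the low-count filter through its WT libraries alone.

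STXBP3, the Munc18 gene that serves syntaxin 4, had 2017, 2180 and 1893 in WT and 1152, 1136 and 1228 in NUAK2-CR. It was lower without overlap, by -0.79 ± 0.08 on the log2 scale (SE). STXBP4, or synip, another partner of syntaxin 4, had 815, 742 and 704 in WT and 359, 385 and 355 in NUAK2-CR, which is a log2 fold change of -1.04 ± 0.10 (SE). It overlaps COX11 on the opposite strand, which was lower as well (-0.59). STXBP5, or tomosyn, had a log2 fold change of 0.11 with overlapping groups, and STXBP2 reached at most 10 counts.

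Of the 17 synaptotagmins, 10 were tested, and 3 of these were higher and 2 lower. Among all tested genes, 54.5% were called, 26.3% higher and 28.2% lower, so the family was not called more often than genes in general. SYT12, a synaptotagmin that does not bind calcium, rose most (gene 91683, chromosome 11, 67006771 to 67050863, plus strand). It had 67.8, 119 and 104 normalized counts in the WT libraries and 411, 478 and 556 in NUAK2-CR, all NUAK2-CR libraries being well above all WT libraries. The log2 fold change was 2.33 ± 0.20 (SE), with adjusted p = 1.2e-06 by edgeR. SYT1, the fast calcium sensor of transmitter release, had 377, 496 and 500 in WT and 711, 666 and 770 in NUAK2-CR, which is a log2 fold change of 0.65 ± 0.12 (SE). SYT14, which does not bind calcium either, had 217, 287 and 246 in WT and 500, 464 and 535 in NUAK2-CR, which is a log2 fold change of 1.00 ± 0.13 (SE).

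SYT11, also without calcium binding and the synaptotagmin with the most counts, had 6462, 8822 and 8617 in WT and 5757, 5791 and 6167 in NUAK2-CR. All NUAK2-CR libraries were below all WT libraries, although WT replicate 1 stood near them, and the log2 fold change was -0.43 ± 0.10 (SE). SYT13 (gene 57586, chromosome 11, 45240302 to 45286341, minus strand) was called from few counts. Its raw counts were 23, 12 and 12 in WT and 0, 2 and 6 in NUAK2-CR, and it passed the filter through the WT libraries alone. The log2 fold change of -2.05 ± 0.72 (SE) had adjusted p = 0.029 by edgeR. The call was lost by DESeq2 (adjusted p = 0.074), and by edgeR when either of the WT replicates 1 (-1.91) and 3 (-2.07) or of the NUAK2-CR replicates 1 (-1.50) and 2 (-1.90) was left out. Without NUAK2-CR replicate 3 it was -3.31 and the call was kept.

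SYT7, the slow calcium sensor of most cell types, had 44.5, 36.7 and 23.6 in WT and 52.1, 30.2 and 39.5 in NUAK2-CR and did not pass (0.19, interval -0.56 to 0.95). SYT8 (0.66), SYT16 (0.75) and SYT17 (0.17) did not pass, with SYT16 passing without WT replicate 1 (0.90) or NUAK2-CR replicate 2 (0.98), and with either other low-count filter (adjusted p = 0.042 and 0.044 by edgeR). SYT15 did not pass (-0.56), but a near-identical copy, SYT15B, is counted apart from it, with 21.9, 19.3 and 11.8 normalized counts in the WT libraries and 8.89, 3.62 and 0 in NUAK2-CR, and reads of the pair may be split between them. SYT2 reached at most 15 counts, SYT6 at most 9, SYT4 and SYT5 at most 4 and SYT3 at most 2, while SYT9 and SYT10 had 0 counts in every library.

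CPLX1, or complexin 1, which binds the assembled SNARE bundle and both clamps and promotes fusion, had 23.9, 19.3 and 25.8 normalized counts in the WT libraries and 68.6, 56.7 and 59.3 in NUAK2-CR. It rose without overlap, by 1.41 ± 0.30 on the log2 scale (SE), with adjusted p = 0.0015 by edgeR. CPLX3 and CPLX4 reached at most 4 counts, and CPLX2 had 0 counts throughout. SV2A, a transporter-like glycoprotein of secretory vesicles, was among the most abundant members, with 5709, 6260 and 6375 in WT and 4058, 4392 and 4504 in NUAK2-CR. It was lower by -0.50 ± 0.07 (SE). SV2C reached at most 6 counts, and SV2B had 0 counts throughout.

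Synapsins, which tie vesicles to the cytoskeleton in nerve terminals, were low. SYN1 had 35.2, 30.9 and 20.4 in WT and 50.8, 36.2 and 55.99 in NUAK2-CR and did not pass (0.71, interval -0.02 to 1.43). SYN2 did not pass either (-1.12, interval -2.41 to 0.16), and SYN3 reached at most 2 counts. Each synapsin gene has a TIMP gene, which encodes a metalloproteinase inhibitor, in an intron on the opposite strand. TIMP1 beside SYN1 was at 5622 and 6390 normalized counts in the WT libraries and NUAK2-CR, and TIMP4 beside SYN2 at 190 and 85.2. SYN3 stayed at most at 2 counts beside TIMP3, which went from 754 to 6367 normalized counts.

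Genes of the neuronal fusion machinery were read against a ubiquitous set. Both sets were chosen with earlier results of these data known. Of the neuronal genes, CADPS, SNAP25, CPLX1, SYT1 and STX1A were higher, VAMP2 was lower, and UNC13A had too few counts. Of the 6 genes of the ubiquitous set, all tested, STXBP3, SNAP23 and VAMP3 were lower, STX4, SYT7 and UNC13D did not pass, and the median was -0.36. The median over all tested genes was -0.01, and 26.3% of all tested genes were called higher and 28.2% lower. Of the ubiquitous set, STXBP3 and VAMP3 lie on chromosome 1 and UNC13D on chromosome 17, as does VAMP2 of the neuronal genes. Tested genes of these chromosomes had medians of -0.43 and -0.38. These are descriptions, and neither the difference between neuronal and ubiquitous genes nor the part of position in it was tested.

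Levels of different genes were compared per length, as normalized counts per kb of the MANE Select transcript. VAMP3 had the highest level in both groups, at 2225 ± 9.42 in WT and 1753 ± 12.7 in NUAK2-CR (SD, n = 3 each). In WT it was followed by SYT11 (1537 ± 252), SV2A (1397 ± 81.3), SNAP23 (1329 ± 105) and VAMP2 (1302 ± 78.6), 4 levels whose spreads touch. In NUAK2-CR the next were STX10 (1223 ± 59.1), SYT11 (1140 ± 43.8), SNAP23 (1024 ± 69.8) and SV2A (986 ± 53.0). CADPS rose from 12.1 ± 1.45 to 405 ± 10.2, from rank 42 to rank 19 among the 70 members. SNAP25 went from 31.5 ± 4.95 and rank 34 to 367 ± 36.5 and rank 22. STXBP6 went from 42.8 ± 2.37 and rank 32 to 0.73 ± 0.64 and rank 55. Summed over all members, the level was 19146 ± 259 in WT and 17169 ± 47.3 in NUAK2-CR.

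**Figure D3:**
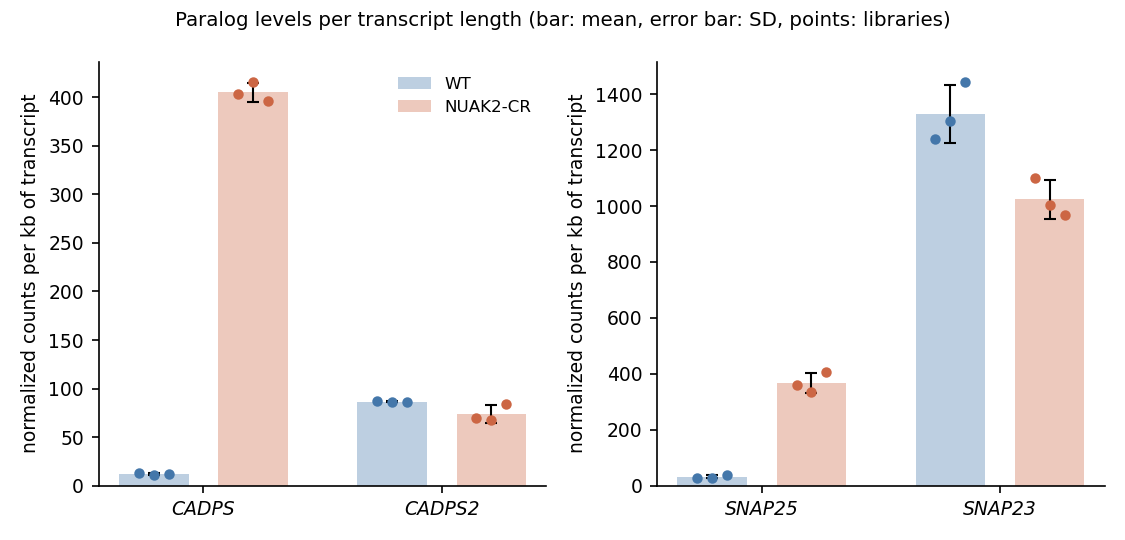
Levels of CADPS and CADPS2 (left) and of SNAP25 and SNAP23 (right) as normalized counts per kb of transcript, with bars for the mean, error bars for the SD and points for the 3 libraries of each group. CADPS overtakes CADPS2 in NUAK2-CR (405 against 74.0), whereas SNAP25 stays below SNAP23 (367 against 1024).

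The shares of CADPS and SNAP25 within their paralog pairs were higher in NUAK2-CR. CADPS made up 13.3, 10.9 and 12.5% of the summed CADPS and CADPS2 level in WT and 85.3, 86.0 and 82.4% in NUAK2-CR. SNAP25 made up 2.22, 2.18 and 2.51% of the summed SNAP25 and SNAP23 level in WT and 24.7 to 29.6% in NUAK2-CR. The groups were far apart for both pairs, and SNAP23 remained the main form at the RNA level. VAMP2 as a share of VAMP2 and VAMP3 was 36.9 ± 1.33% and 30.9 ± 0.65%, and STX1A as a share of STX1A and STX4 was 29.9 ± 2.27% and 33.3 ± 2.56% (SD, n = 3 each). Among 6 such shares, the two-sided exact permutation p was 0.1 for 5, the smallest that 3 against 3 libraries allow, and 0.3 for STX1A, or 0.12 and 0.3 after Benjamini-Hochberg adjustment.

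The lower members were unevenly placed along the genome. Of the 20 lower members, 9 lay on chromosome 1 and 3 on chromosome 17, where the tested genes as a whole were lower, with medians of -0.43 and -0.38 on the log2 scale. Of the 14 tested members on these chromosomes, 12 were lower and SYT14 was higher, and their median was -0.54. Of the 2418 tested genes there, 57.2% were lower and 9.10% higher, with a median of -0.42. Of the 38 tested members elsewhere, 10 were higher and 8 lower, with a median of 0.07. Of the 12455 other tested genes, 22.6% were lower and 29.6% higher, with a median of 0.06. Chromosome X, counted here with the others, had a median of -0.40, and its tested members SYN1 (0.71) and VAMP7 (0.85) lay above it without passing the test.

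Each member was also set beside the 50 tested genes nearest to it. VAMP3 (-0.34) had a neighbour median of -0.46, SV2A (-0.50) of -0.60, SYT11 (-0.43) of -0.37 and SNAP47 (-0.55) of -0.42. On chromosome 17, STXBP4 (-1.04) and VAMP2 (-0.73) fell further than their neighbours, at -0.33 and -0.35. VAMP3, SV2A, SYT11 and SNAP47 with STX12, STX6, STXBP3 and VAMP4 made 8 of the 20 lower members that fell inside the middle 50% of their neighbours. Of the 11 higher members only STX10 did. CADPS, SNAP25, SYT12 and STXBP6 had neighbour medians of 0.20, 0.24, 0.08 and 0.07, and SYT14, at 1.00, one of -0.43. SYT13 lay among genes with a median of -0.47. The part of the regional shift in the members' values was not tested.

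**Figure D4:**
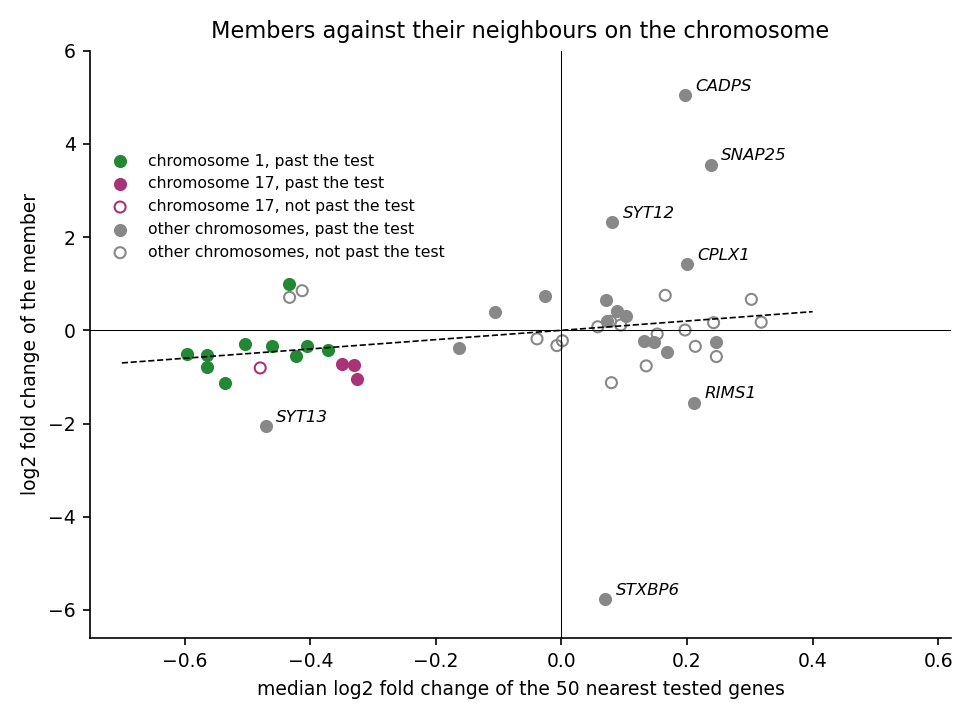
Log2 fold change of 50 tested members against the median of the 50 tested genes nearest to each, coloured by chromosome, with a dashed line where both are equal and filled points for members past the test. Members of chromosomes 1 and 17 lie at the left, some near the line and others such as STXBP4 (-1.04 against -0.33), RIMS3 (-1.13 against -0.54) and SYT14 away from it, and CADPS, SNAP25, SYT12 and STXBP6 lie far from it.

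The rest of the release machinery was read from a list of 78 other genes, of which 67 were tested. Of these, 19 were higher and 21 lower in NUAK2-CR (59.7% called), and the median log2 fold change was 0.01. Over all tested genes 54.5% were called, 26.3% higher and 28.2% lower, and the small groups that follow are read against these shares without a test. The Rab GTPases that carry secretory vesicles to the membrane were higher in 4 of 5 cases: RAB3B went from 885, 635 and 629 to 1492, 1422 and 1282 normalized counts, RAB27B had a log2 fold change of 0.75, RAB3D of 1.26 and RAB27A of 0.32, while RAB3A was lower (-0.72). Ferlins and extended synaptotagmins, calcium-binding proteins of membrane fusion and membrane contact, were higher in 4 of 5 cases, with MYOF going from 11867, 11770 and 10841 to 19644, 18635 and 18183. Of the exocyst, which tethers vesicles to the plasma membrane, 5 of 9 subunit genes were lower and 1 was higher. Of the 7 tested partners of SNAREs and Munc18-like proteins 5 were lower.

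Outside the members, SYTL1 and ERC2 were the DEGs of this machinery. SYTL1, a synaptotagmin-like protein that binds RAB27 on vesicles, had 301, 305 and 297 normalized counts in the WT libraries and 78.7, 47.03 and 38.4 in NUAK2-CR, which is a log2 fold change of -2.47 ± 0.23 (SE). ERC2, an active zone scaffold that binds RIM proteins, had 31.2, 18.3 and 31.2 in WT and 2.54, 2.41 and 13.2 in NUAK2-CR, which is a log2 fold change of -2.09 ± 0.59 (SE). ERC2 stayed past the adjusted p-value but not the DEG threshold without WT replicate 1 (-1.95) or 3 (-1.99). The same held without NUAK2-CR replicate 1 (-1.73) or 2 (-1.72), and with a prior count of 2 (-1.82). With at least 10 counts in every library it was not tested. NSF and its adaptors NAPA, NAPB and NAPG, which take spent SNARE bundles apart, had log2 fold changes of 0.72, 0.07, -0.13 and -0.06 and did not pass the test, with adjusted p-values of 0.32 to 0.54 by edgeR. The NSF value rested on NUAK2-CR replicate 1: normalized counts were 69.7, 55.0 and 44.1 in WT and 210, 19.3 and 54.9 in NUAK2-CR.

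**Figure D5:**
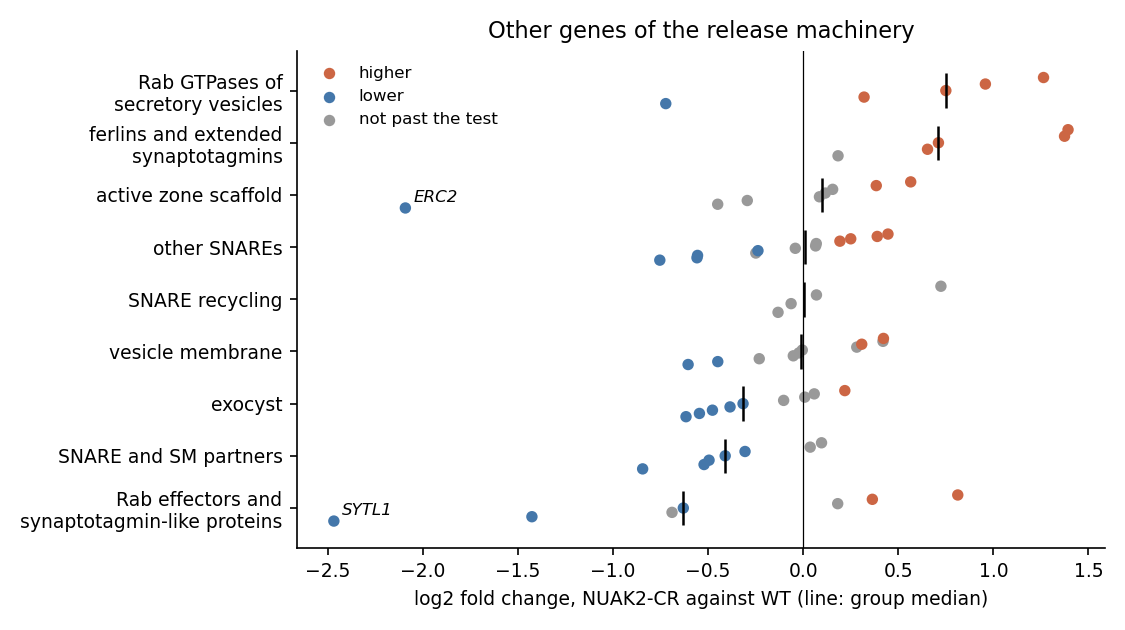
Log2 fold change, NUAK2-CR against WT, of the 67 tested genes of the rest of the release machinery by group, with vertical lines at the group medians and colours for genes past the test. Rab GTPases and ferlins lie mostly to the right of 0, exocyst subunits and SNARE partners mostly to the left, and SYTL1 and ERC2 lie beyond -2.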

How the data were processed

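Bulk RNA-sequencing of polyadenylated RNA covered 3 WT and 3 NUAK2-CR libraries, grouped by their titles. The submitters' processing notes name bcl2fastq, Trimmomatic, HISAT2 and featureCounts on hg38, and the study's methods give default parameters. The authors deposited raw read counts per gene, neither normalized nor pooled, under NCBI gene identifiers, and 27745 of 28395 were matched to a symbol. The gene annotation is not given in the sources used here, and featureCounts' default, as far as no other setting is named, counts without regard to strand.

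The test was run with edgeR 4.0.16 in R 4.3.3: filterByExpr, TMM, glmQLFit and the quasi-likelihood F test without covariates, with Benjamini-Hochberg adjustment over 14873 tested genes and a prior count of 0.125. The DEG thresholds of the study's methods were kept (adjusted p-value below 0.05, log2 fold change beyond 2 in either direction). Standard errors were taken from the F statistic, and 95% intervals from its degrees of freedom. Ranges of totals and intervals cover the spread between libraries, and a floor of 3 counts covers counting error only. The common biological coefficient of variation was 0.101. Tables and figures were made with pandas 2.3.3 and matplotlib 3.10.9 in Python 3.11.15. The steps were first tested on simulated data drawn from the counts. Positions, promoters and MANE lengths are from RefSeq (GRCh38.p14) and GENCODE.

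Members and lists were chosen with earlier results of these data known. Named by rule were the DEGs, the largest change and highest level of each family, the neuronal and ubiquitous fusion sets, untested members, and DEGs of the other machinery. The remaining members were named to account for all 70, those of them described in detail after their values were seen; 2 tested members are counted in totals but not reported here. The alternatives were DESeq2 1.42.0, RLE or library-total scaling, a minimum of 10 counts in every library or only 1 count in any, a replicate block, leaving out single libraries, a prior count of 2, and a log2 threshold of 1.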

Additional observations from a re-analysis of the deposited data

How the results depend on the processing

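Leaving out each library in turn gave 27 to 31 members past the adjusted p-value (9 to 12 higher and 17 to 20 lower), 4 to 5 DEGs among the members, 36 to 40 other machinery genes past the test, and a median log2 fold change of the members of -0.26 to -0.16. With at least 10 counts in every library, 3 members were DEGs and the median was -0.083, 7 of the 52 members, STXBP6 and SYT13 among them, not being tested then. With an absolute log2 fold change over 1 in place of 2, 10 members were DEGs. DESeq2, RLE scaling, library totals, no filter beyond 1 count and a prior count of 2 left 30 to 33 members past the adjusted p-value and 4 to 6 DEGs. The replicate numbers were tried as a replicate block, although the correlations of same-numbered libraries (0.039, -0.027 and 0.044) do not show them to be pairs: the block gave 31 members past the test, 5 DEGs, 39 other machinery genes and a median of -0.24, and it changed the calls of STX10 (adjusted p = 0.058 by edgeR) and SYT16 (0.049). With no filter beyond 1 count the call of STX10 was lost (0.065), and VAMP7 (0.023) and SYT16 (0.042) passed. NUAK2 kept its direction and its call, at -1.02 to -0.80 with each library left out.

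Of 360 values of 28 named genes under the alternatives, 350 kept their direction and their side of the adjusted p-value threshold. SYT7, not called in any setting, ranged from -0.011 (without WT replicate 3, where its direction turned) to 0.42 (without WT replicate 1). Over all 52 tested members, 24 were called in every setting run on them and 11 changed their call in at least 1, 7 of which were called in the full set and 4 were not. The causes of these changes were not tested.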
